A study of Danio rerio with 8 samples.

Results

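The response of the mstnb mutant zebrafish spinal cord to complete transection was described here as the difference between injured and uninjured mutant cord across all genes whose mean reached 1 CPM (reads of a gene scaled to the library total) in either mutant group. This rule took 18487 of the 25309 entries in the expression table. It used a level and no change, and it fell between irge1, which was kept at 1.00 CPM in its higher mutant group, and si:dkeyp-92c9.2, which was left out at 0.999 CPM.

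RNA sequencing was done on total RNA from 2 mm of adult spinal cord, which held the lesion in injured fish and lay 4 mm caudal to the brainstem in uninjured ones. The animals were fish of both sexes aged 3 to 9 months. The groups are mstnb mutants (labelled mstnb -/-) 1 week after transection (1 wpi), uninjured mstnb mutants, wild-type fish 1 wpi and uninjured wild-type fish, with 2 libraries each. The labels do not give the mutant allele, the sex balance of a library or the number of animals in it, so the p-values below hold for the spread from library to library, part of which may be technical. A sham operation that opens skin and muscle is also described in the labels, but is tied to no library.

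Adult zebrafish regrow a transected spinal cord. Glial progenitors that line the central canal, often called ependymo-radial glia, divide and give rise to new glia and neurons, glial cells bridge the lesion, and cut axons grow back across it while macrophages and microglia clear myelin and cell debris. Myostatin is a secreted factor of the TGF-beta family that acts through activin type II receptors and SMAD factors, is held in check by follistatin, and is best known as an inhibitor of muscle growth.

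The injured mutant libraries held 21895668 and 22697276 reads, and the uninjured ones 33410514 and 25058706. Over genes, log2 values correlated at 0.978 between the injured and 0.959 between the uninjured mutant libraries, with a median absolute difference of 0.240 and 0.524. Reads of the mitochondrial genome made up 13.3% and 13.2% of the injured mutant libraries, against 32.8% and 21.5% of the uninjured ones. CPM values therefore share a smaller remainder in uninjured cord. Before any other scaling the median log2 change of all tested genes was 0.37 in mutants and 0.29 in wild type. With TMM scaling, which sets libraries to each other by the bulk of their genes, these medians were -0.01 and 0.03. Log2 changes below are therefore given relative to the median of all genes, as the log2(CPM + 1) difference of injured minus uninjured ± its SE, while adjusted p-values belong to the change before this shift. Adding 1 CPM makes the change of a scarcely read gene look smaller than it was.

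mstnb itself stood at 11.9 and 17.7 CPM in injured mutants, against 10.2 and 26.4 CPM in uninjured mutants. The groups overlapped, with a relative change of -0.54 ± 0.42 (limma adjusted p = 0.861). Wild type had 45.2 and 42.2 CPM when injured and 48.8 and 74.8 CPM when uninjured, above all 4 mutant values.

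Of 19114 genes tested over the 4 groups, 610 (3.19%) passed in injured against uninjured mutants at a limma adjusted p under 0.05. Of these, 562 (2.94%) were higher and 48 (0.251%) were lower in injured cord, and every called gene was among the 18487. At an unadjusted limma p under 0.05, 3051 genes were higher and 277 lower. After TMM scaling 247 genes (1.29%) passed, 185 (0.968%) higher and 62 (0.324%) lower. Of the genes called with deposited CPM, 185 higher and 37 lower ones were also called after TMM scaling (0.968% and 0.194% of all genes). On the reads recovered from the CPM, edgeR called 132 genes higher (0.691%) and 38 lower (0.199%), and DESeq2 called 855 (4.47%), 544 higher (2.85%) and 311 lower (1.63%). The count of 610 fell to 58 and 78 without injured mutant 1 or 2, to 56 and 472 without uninjured mutant 1 or 2, and to 239 and 238 without injured wild type 1 or 3. It stood at 1751 and 1718 without uninjured wild type 1 or 2, which enter the fit through the shared estimate of spread. Injured lay above uninjured in each pairing of mutant libraries for 8665 genes (45.3%), and below for 1429 genes (7.48%).

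Among the largest rises found in both scalings, scn4ab, a voltage-gated sodium channel subunit, had 65.4 and 56.2 CPM in injured mutants against 0.988 and 2.00 CPM in uninjured mutants, a relative change of 4.29 ± 0.40 (limma adjusted p = 0.000315). ndnf, a secreted neurotrophic factor, had 190 and 200 CPM against 7.24 and 7.66 CPM in uninjured mutants, a relative change of 4.17 ± 0.28. crlf1a, the secreted partner of a ciliary neurotrophic factor-type cytokine, had 71.3 and 72.2 CPM in injured mutants and 2.1 and 3.07 CPM in uninjured mutants. For these 3 genes, chosen with the groups apart, the lowest injured library lay far above the highest uninjured one.

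macc1, known in human cells as a regulator of the receptor MET, followed with 24.1 and 17.4 CPM in injured mutants against 0.658 and 0.599 CPM in uninjured mutants (relative change 3.35 ± 0.39, limma adjusted p = 0.000739). kitlgb, a ligand of the receptor kinase Kit, had 11.8 and 9.52 CPM in injured mutants, against 0.0599 and 0.120 CPM in uninjured mutants. Its uninjured level is that of a few reads, so its relative change of 3.05 ± 0.41 rests on the pseudocount. anxa2a, a calcium-dependent membrane-binding annexin, had 1190 and 1537 CPM when injured and 115 and 91.8 CPM when uninjured, a relative change of 3.34 ± 0.38 (limma adjusted p = 0.000699). The 16 largest rises, chosen with the groups apart, also include tubb6, mmp9, apoeb, vipb, prg4a, pyya, tnfaip6, fkbp5, hapln1a and slc1a3b. Each of the 16 kept a positive change in every alternative run. Runs without a wild-type library, with another filter, with a replicate block or on mutants alone leave this change as it is. With groups apart by choice, another pseudocount or a mutant library left out of the deposited CPM could not turn a sign either. With a mutant library left out, 14 to 16 of these 16 were still called, and the 14 came without uninjured mutant 1; with TMM scaling as well, 4 to 12 were, and the 4 came without injured mutant 1.

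**Figure D1:**
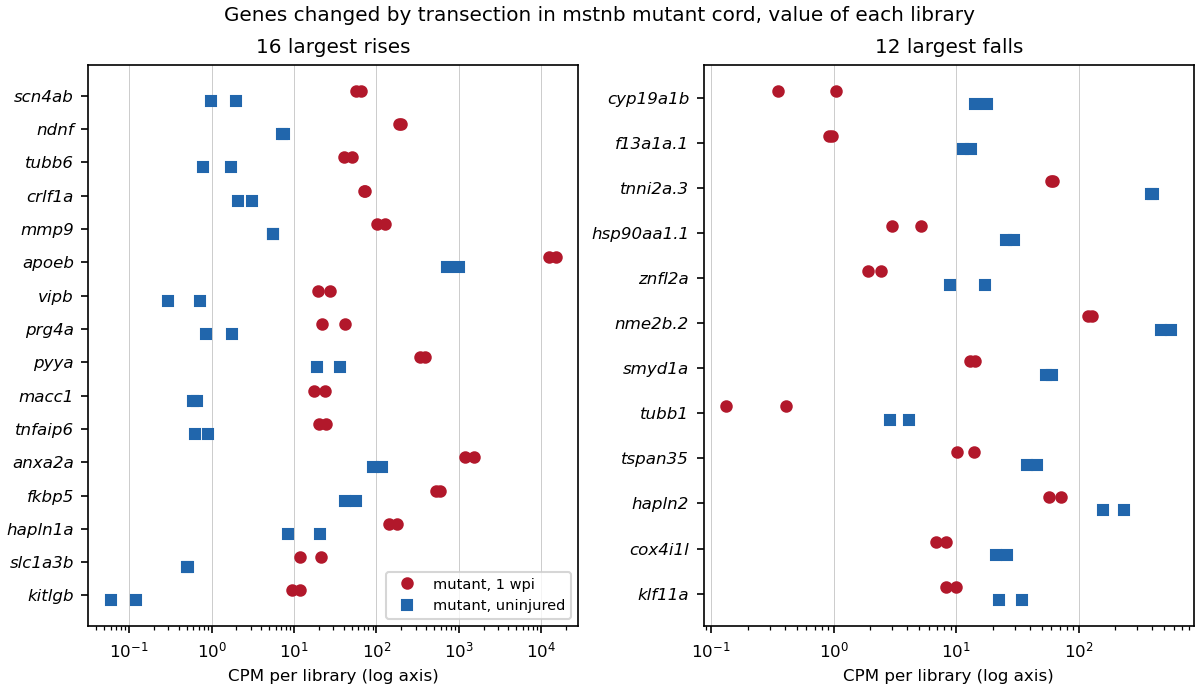
CPM on a log axis for the 16 largest rises (left) and the 12 largest falls (right) called under both scalings in injured minus uninjured mutants, with 1 point per library, circles for injured and squares for uninjured mutants. The genes were chosen so that injured and uninjured libraries do not overlap. At the top left is scn4ab, at 65.4 and 56.2 CPM in injured against 0.988 and 2.00 CPM in uninjured mutants.

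Over all genes tested 2.94% were called higher and 0.251% lower, and 0.968% higher after TMM scaling. Genes of axon growth and neuronal differentiation were called in the direction of most calls. Of 40 tested, 10 were called higher and 0 lower, 6 also after TMM scaling, and 3 to 14 when a mutant library was left out (3 without uninjured mutant 1). Their median relative change was 0.61, against 0 by construction for all genes. gap43, a growth cone membrane protein, had 1299 and 1505 CPM in injured mutants and 136 and 242 CPM in uninjured mutants, a relative change of 2.57 ± 0.37 (limma adjusted p = 0.00193). Of the tubulins, tubb5 had 1339 and 1643 CPM in injured mutants against 97.8 and 227 CPM in uninjured mutants, a relative change of 2.94 ± 0.35 (limma adjusted p = 0.000839). stmn4l, of the stathmin family that regulates microtubule ends, had 244 and 262 CPM in injured mutants and 26.6 and 41.5 CPM in uninjured mutants. As a ratio, though not in CPM, the 2 injured values lay closer together in each of these than the 2 uninjured ones. tubb6, stmn4, tuba1b, marcksb, prph, alcamb and sox11b were the other called members. sox11b, a transcription factor of newborn and regrowing neurons, had 30.1 and 24.5 CPM in injured mutants and 5.96 and 8.90 CPM in uninjured mutants, and passed with deposited CPM (limma adjusted p = 0.0478) but not after TMM scaling (adjusted p = 0.120).

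Genes of mature neurons and synapses gave no call in limma, edgeR or DESeq2, 0 of 38, with a median relative change of -0.07. At an unadjusted limma p under 0.05, 2 members were higher and 0 lower, against 3051 and 277 of the 19114 genes tested. The median was -0.32 without uninjured mutant 1 and 0.22 without uninjured mutant 2, where 2 members were called higher, so that its sign turned with 1 library. The closest was vamp2, a vesicle fusion protein, at 90.6 and 100 CPM in injured mutants and 25.5 and 58.1 CPM in uninjured mutants (relative change 0.92 ± 0.39, limma adjusted p = 0.107). Their summed level was 7534 and 8774 CPM in injured mutants against 4413 and 11008 CPM in uninjured mutants, so that the uninjured libraries enclosed the injured ones. Uninjured mutant 1, the lower of them, is also the library with the highest mitochondrial share. In bulk tissue, fewer cells of a type and less RNA per cell cannot be told apart, here and for every list below.

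Of 35 genes of neural progenitors and radial glia, 5 were called higher and 1 lower, of which 2 and 1 also passed after TMM scaling. The higher calls numbered 1 without injured mutant 1, injured mutant 2 or uninjured mutant 1, and the lower call was not made without injured mutant 2 or uninjured mutant 1. slc1a3b, a glial glutamate transporter, had 11.7 and 21.1 CPM in injured mutants and 0.509 and 0.519 CPM in uninjured mutants, a relative change of 3.10 ± 0.43 (limma adjusted p = 0.00171). nes, the intermediate filament nestin of progenitors, had 115 and 129 CPM in injured mutants against 33.9 and 47.3 CPM in uninjured mutants, a relative change of 1.22 ± 0.32. foxj1a, which drives the genes of motile cilia, had 93.4 and 116 CPM in injured and 29.4 and 29.6 CPM in uninjured mutants, and did not pass after TMM scaling (adjusted p = 0.0585). In each of these 3 the groups were apart, as for 45.3% of all genes, and slc1a3b was chosen that way among the largest rises. vim and glulb were the other 2 members called higher, at relative changes of 0.87 ± 0.27 and 1.1 ± 0.31. Over all genes 2.94% were called higher and 0.251% lower, or 0.968% and 0.324% after TMM scaling.

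The defining markers of this list were present in every library, and several of them did not pass. gfap, the astroglial filament, had 5117 and 5011 CPM in injured mutants against 4329 and 3333 CPM in uninjured mutants, a relative change of 0.05 ± 0.34 (limma adjusted p = 0.565). sox2 had 59.4 and 64.5 CPM in injured mutants and 34 and 38.1 CPM in uninjured mutants, a relative change of 0.40 ± 0.36. The proneural factor neurod1 had 36.8 and 43.5 CPM when injured and 35.9 and 62.9 CPM when uninjured, with overlapping groups. The member called lower by limma was cyp19a1b, the brain aromatase of radial glia, which makes oestrogens. It had 1.05 and 0.352 CPM in injured mutants against 17.7 and 14.2 CPM in uninjured mutants (relative change -3.71 ± 0.48, limma adjusted p = 0.00415). In this list 24 members had a positive relative change and 11 a negative one. edgeR called 1 higher and 1 lower, and DESeq2 called 4 higher and 2 lower.

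Of 48 macrophage and microglia genes, 21 were called higher and 0 lower, 8 also after TMM scaling, and 3 to 12 when a mutant library was left out (3 without injured mutant 1). Their median relative change was 0.96, and 42 of 48 had injured libraries above uninjured ones, against 45.3% of all genes. The share of all genes called higher was 2.94%, or 0.968% after TMM scaling. The summed level was 23337 and 20261 CPM in injured mutants against 2935 and 3566 CPM in uninjured mutants, and apoeb, an apolipoprotein E strongly made by microglia, gave much of it with 15201 and 12474 CPM against 718 and 992 CPM in uninjured mutants. grna, a progranulin of lysosomes, had 108 and 129 CPM in injured mutants and 23.0 and 31.7 CPM in uninjured mutants, a relative change of 1.72 ± 0.28 (limma adjusted p = 0.00308). lgals9l1, a galectin, had 241 and 273 CPM in injured mutants against 49.3 and 52.6 CPM in uninjured mutants. havcr1, a receptor for phosphatidylserine on dying cells, had 129 and 109 CPM when injured and 24.5 and 31.2 CPM when uninjured. The groups were apart in each, which for apoeb was a condition of its choice among the largest rises.

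Lineage markers of these cells were called as well. csf1ra, the receptor that microglia need, had 64.3 and 80.2 CPM in injured mutants and 16.6 and 20.9 CPM in uninjured mutants (relative change 1.52 ± 0.35, limma adjusted p = 0.0162). spi1a, a myeloid transcription factor, and marco, a scavenger receptor, had relative changes of 1.14 ± 0.32 and 1.34 ± 0.34, without passing after TMM scaling. Genes of antigen presentation by MHC class II were called too: cd74a, the invariant chain, had 2925 and 2633 CPM in injured mutants against 706 and 856 CPM in uninjured mutants, and cd74b, mhc2dab and mhc2a also passed with deposited CPM. None of these 4 passed after TMM scaling.

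Genes of lipid clearance and lysosomes, a list that shares apoeb and cathepsins with the last, had 12 of 40 called higher and 0 lower. The shares of all genes were 2.94% and 0.251%. The list had a median relative change of 0.64. Of these 12, 6 also passed after TMM scaling, and 2 to 15 members passed with a mutant library left out (2 without injured mutant 1). abca1a, which loads cholesterol onto lipoproteins, had 158 and 173 CPM in injured mutants against 19.6 and 24.8 CPM in uninjured mutants (relative change 2.49 ± 0.28, limma adjusted p = 0.000613). ctsla, a lysosomal cathepsin, had 465 and 451 CPM in injured mutants and 101 and 125 CPM in uninjured mutants. npc1, which moves cholesterol out of lysosomes, had 154 and 136 CPM in injured mutants and 38.9 and 50.8 CPM in uninjured mutants, and passed in both scalings. Cholesterol synthesis gave 0 calls of 27 in limma, edgeR and DESeq2, with a median of -0.31. At an unadjusted limma p under 0.05, 3 were higher and 0 lower, against 3051 and 277 of all 19114 genes. hmgcrb, an HMG-CoA reductase gene and so of the rate-limiting step, was the nearest at 0.65 ± 0.32 (limma adjusted p = 0.115).

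Of 14 neutrophil genes 2 were called, in both scalings and with any mutant library left out. mmp9, a matrix-cleaving gelatinase, had 103 and 127 CPM in injured mutants against 5.54 and 5.59 CPM in uninjured mutants, a relative change of 3.77 ± 0.41. adam8a, a leukocyte membrane protease, had 35.1 and 39.2 CPM in injured mutants and 2.54 and 2.63 CPM in uninjured mutants (relative change 3.04 ± 0.35, limma adjusted p = 0.000721). Neither gene is made by neutrophils alone, and mpx and lyz, which define these cells, were not called. Over all genes 2.94% were called higher, and 0.968% after TMM scaling. Of 17 lymphocyte genes 0 were called by limma, edgeR or DESeq2, at a median of -0.56. At an unadjusted limma p under 0.05, 1 was higher and 0 lower, against 3051 and 277 of all 19114 genes. The nearest was ccr9a, a chemokine receptor, at 0.89 ± 0.46.

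**Figure D2:**
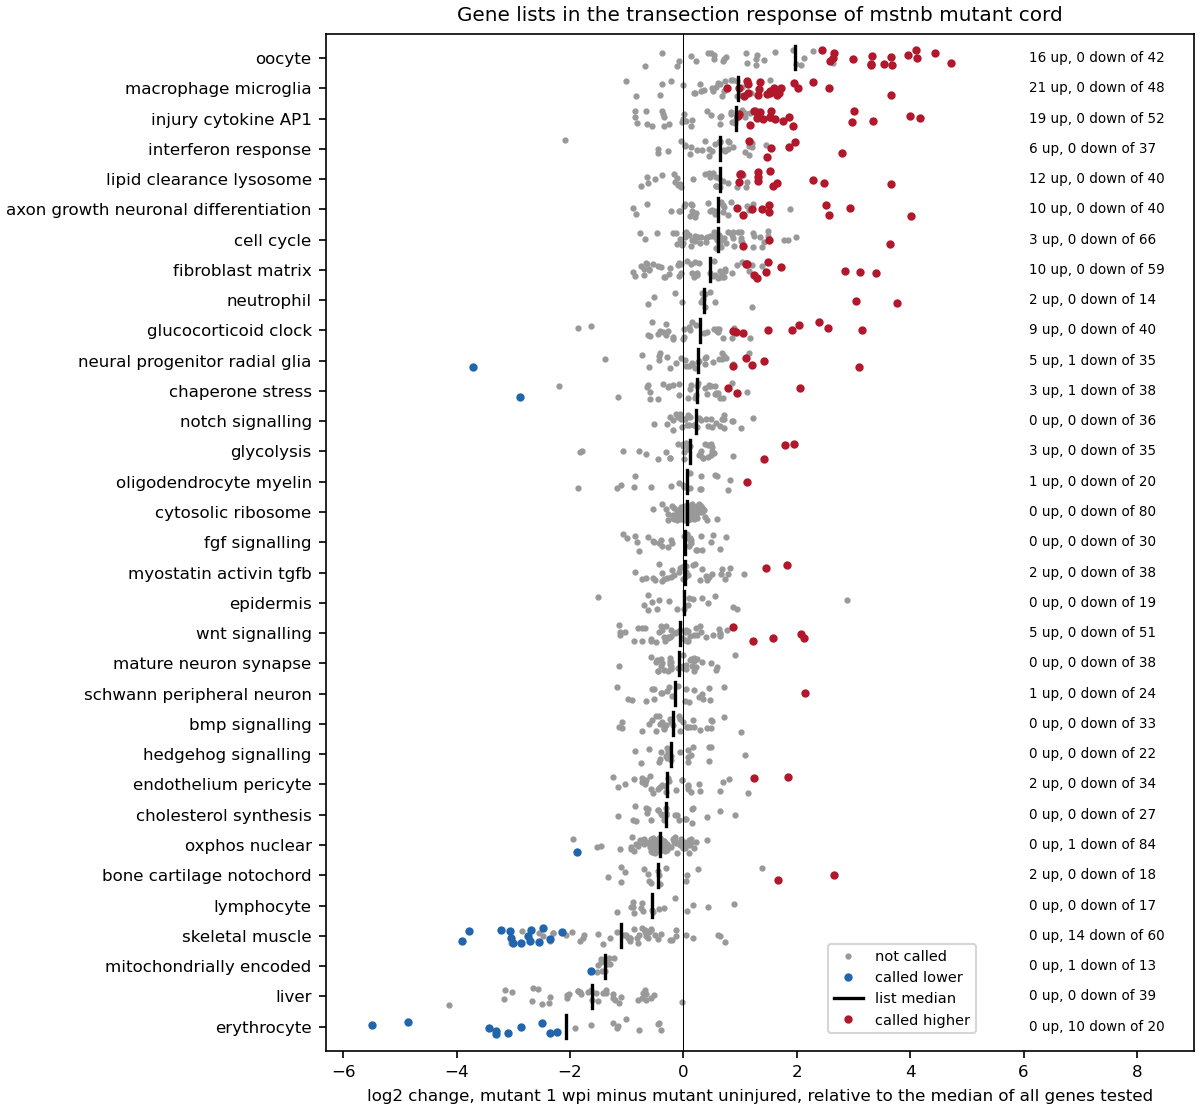
Relative log2 change of injured minus uninjured mutants for each tested gene of each gene list, 1 point per gene, with genes called higher or lower by limma in colour, the list median as a bar and the number called on the right. Macrophage genes have a median of 0.96 and injury genes one of 0.92, while muscle genes lie at -1.11 and erythrocyte genes at -2.08, against 0 for all genes.

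Of 52 genes of the injury, cytokine and AP-1 list, 19 were called higher and 0 lower, 12 also after TMM scaling, with 6 to 14 called when a mutant library was left out (6 without either injured mutant). The median relative change was 0.92. The shares of all genes were 2.94% called higher and 0.251% lower, and 0.968% higher after TMM scaling. ndnf and crlf1a belong here. atf3, a transcription factor switched on in cut neurons, had 106 and 114 CPM in injured mutants against 8.92 and 10.5 CPM in uninjured mutants, a relative change of 3.01 ± 0.29 (limma adjusted p = 0.000315). socs3a, the feedback inhibitor of STAT3 signalling, had 142 and 124 CPM in injured mutants and 9.88 and 14.9 CPM in uninjured mutants, a relative change of 2.97 ± 0.37. il6st, the shared receptor of interleukin 6-type cytokines, had 128 and 146 CPM when injured and 25.6 and 44.5 CPM when uninjured. Ligand partner, receptor, feedback inhibitor and stat3 itself (relative change 0.99 ± 0.31) were thus all called higher, stat3 not after TMM scaling.

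junbb, an AP-1 factor, had 175 and 212 CPM in injured mutants against 36.5 and 44.9 CPM in uninjured mutants (relative change 1.85 ± 0.26, limma adjusted p = 0.00149), junba had a relative change of 1.94 ± 0.33 and jun one of 1.29 ± 0.31, each in both scalings. fosl1a and fosl2 passed with deposited CPM and not after TMM scaling. bdnf, brain-derived neurotrophic factor, had 21.1 and 22.4 CPM in injured mutants and 4.31 and 7.46 CPM in uninjured mutants, a relative change of 1.40 ± 0.38 (limma adjusted p = 0.0287). hmox1a, the haem oxygenase that breaks down haem, had 37.3 and 39.4 CPM in injured mutants and 7.90 and 11.3 CPM in uninjured mutants.

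Of 59 fibroblast and matrix genes 10 were called higher and 0 lower, against 2.94% and 0.251% of all genes, with a median relative change of 0.47. Of these, 3 also passed after TMM scaling, prg4a, hapln1a and cthrc1a, and 1 to 9 passed with a mutant library left out (1 without uninjured mutant 1). prg4a, the lubricin proteoglycan, had 21.6 and 41.2 CPM in injured mutants and 0.868 and 1.76 CPM in uninjured mutants, a relative change of 3.40 ± 0.44 (limma adjusted p = 0.00143). hapln1a, which links hyaluronan to proteoglycans, had 141 and 177 CPM in injured mutants against 8.38 and 20.6 CPM in uninjured mutants. cthrc1a, a secreted protein of remodelling matrix, had 9.32 and 18.7 CPM in injured mutants and 0.120 and 1.08 CPM in uninjured mutants. In all 3 the second injured library was the higher. The groups were apart, as for 45.3% of all genes, and prg4a and hapln1a were chosen that way among the largest rises. tnfaip6, a hyaluronan-binding protein outside this list, had 20.0 and 24.2 CPM when injured and 0.629 and 0.918 CPM when uninjured.

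The other 7 called members of the list were the matrix proteins col5a2a, col18a1a, fn1a and thbs1b, the protease mmp14b, the protease inhibitor timp2b and the growth factor receptor pdgfrb. They were called at relative changes between 1.11 and 1.72, but not after TMM scaling. The main type I collagen chain, col1a1a, had 43.0 and 61.1 CPM in injured mutants against 19.7 and 27.5 CPM in uninjured mutants, a relative change of 0.74 ± 0.33 that did not pass (limma adjusted p = 0.0977). Of 34 endothelial and pericyte genes 2 were called higher, against 2.94% of all genes, with a median of -0.29. edgeR called 1 higher, and DESeq2 called 2 higher and 1 lower. With a mutant library left out 0 or 1 were called (1 without uninjured mutant 2), and the median was -0.03 without uninjured mutant 1 and -0.54 without uninjured mutant 2. pecam1, a junction protein of endothelium, had 52.6 and 46.4 CPM in injured mutants and 7.36 and 13.3 CPM in uninjured mutants (relative change 1.84 ± 0.34, limma adjusted p = 0.00632), and rgs5b, a pericyte gene, had a relative change of 1.25 ± 0.39 that did not pass after TMM scaling. Of 18 bone, cartilage and notochord genes col2a1a and spp1 were called, the first in both scalings, and 0 with a mutant library left out. In this list edgeR called 0, and DESeq2 called 2 higher and 1 lower, while limma called 2.94% of all genes higher. spp1 encodes osteopontin, which activated macrophages also make.

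Among signalling lists, the myostatin and TGF-beta list had 2 of 38 called higher and 0 lower, in both scalings, with a median of 0.03 that turned to -0.02 without injured mutant 2. Neither was called with an injured mutant or uninjured mutant 1 left out. fstb, a follistatin, which binds and blocks activin and myostatin, had 5.71 and 5.95 CPM in injured mutants and 0.239 and 0.798 CPM in uninjured mutants, a relative change of 1.83 ± 0.41 (limma adjusted p = 0.0173). bambia, a pseudoreceptor that dampens BMP and TGF-beta signals, had 42.2 and 35.8 CPM in injured mutants against 8.80 and 11.8 CPM in uninjured mutants, a relative change of 1.46 ± 0.32 (limma adjusted p = 0.0120). The groups were apart in both. Called members were 2 of 38, against 2.94% of all genes called higher, and edgeR called 1, bambia. fstl1b, a follistatin-like secreted protein counted with the injury genes, had 91.6 and 116 CPM in injured mutants and 25.8 and 36.4 CPM in uninjured mutants, a relative change of 1.35 ± 0.30.

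Of 51 Wnt genes 5 were called higher and 0 lower, 4 also after TMM scaling, and 0 to 4 with a mutant library left out (0 without injured mutant 2 or uninjured mutant 1). They were the ligand wnt4b, the secreted antagonist dkk1a, the receptor fzd2, the agonist rspo2 and the beta-catenin gene ctnnb2. The shares of all genes were 2.94% called higher and 0.251% lower, and 0.968% higher after TMM scaling. In this list edgeR called 3 higher and 0 lower, and DESeq2 called 4 higher and 2 lower. wnt4b had 184 and 297 CPM in injured mutants against 30.9 and 57.9 CPM in uninjured mutants, a relative change of 2.07 ± 0.35 (limma adjusted p = 0.00451). dkk1a had 7.63 and 4.98 CPM in injured mutants and 0.239 and 0.319 CPM in uninjured mutants. The median of the list was -0.06 and turned to 0.05 without injured mutant 1 and 0.02 without uninjured mutant 2, and ligand, receptor, agonist and antagonist each gave a member called higher.

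No gene of 4 further signalling lists was called in limma or edgeR, with 0 of 30 for FGF, 0 of 36 for Notch, 0 of 22 for Hedgehog and 0 of 33 for BMP signalling. At an unadjusted limma p under 0.05 there were 3, 12, 3 and 1 members, all higher. At that level 3051 of the 19114 genes tested were higher and 277 lower. DESeq2 called 1 FGF gene lower and 0 in the other 3 lists. The medians were 0.04, 0.22, -0.22 and -0.18, and that of FGF was negative with any mutant library left out (-0.19 to -0.04). limma called 1 Notch gene higher without uninjured mutant 2. The members nearest to a call were the ligand fgf24 at 0.74 ± 0.38, the glycosyltransferase lfng at 0.70 ± 0.28, the ligand shha at 1.09 ± 0.46 and the receptor bmpr1aa at 1.01 ± 0.48. fgf1b, an FGF ligand, had 1.1 and 0.573 CPM in injured mutants and 2.18 and 1.48 CPM in uninjured mutants, a relative change of -1.0 ± 0.40 (limma adjusted p = 0.453). These low levels limit what could be seen.

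Of 37 interferon response genes 6 were called higher and 0 lower, 4 also after TMM scaling, with a median of 0.65 and 1 to 5 calls when a mutant library was left out (1 without injured mutant 1 or uninjured mutant 1). isg15, a ubiquitin-like protein, had 35.2 and 31.3 CPM in injured mutants and 2.96 and 2.63 CPM in uninjured mutants, a relative change of 2.80 ± 0.34 (limma adjusted p = 0.000844). gbp2, a guanylate-binding protein, had 20.6 and 23.5 CPM in injured mutants against 2.84 and 4.35 CPM in uninjured mutants. The called members served antigen processing as well, with ifi30, tapbp.1 and psmb10. rsad2 (viperin), a widely used interferon target, was not called by limma and lay the other way. It had 12.4 and 7.62 CPM in injured mutants and 38.7 and 30.9 CPM in uninjured mutants (relative change -2.10 ± 0.43, limma adjusted p = 0.0531). In this list edgeR called 2 members higher and 0 lower, and DESeq2 called 6 higher and 1 lower. Over all genes limma called 2.94% higher and 0.251% lower, and 0.968% higher after TMM scaling.

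Glucocorticoid and clock genes had 9 of 40 called higher and 0 lower, 5 also after TMM scaling, at a median of 0.29, with 1 to 6 calls when a mutant library was left out (1 without either injured mutant). fkbp5, a co-chaperone that glucocorticoids induce, had 530 and 593 CPM in injured mutants against 41.2 and 56.2 CPM in uninjured mutants, a relative change of 3.15 ± 0.33 (limma adjusted p = 0.000493). klf9, another glucocorticoid target, had 40.6 and 39.1 CPM in injured mutants and 2.81 and 6.70 CPM in uninjured mutants. After TMM scaling 1 member of the list was called lower, and DESeq2 called 8 higher and 1 lower. Over all genes limma called 2.94% higher and 0.251% lower, or 0.968% and 0.324% after TMM scaling. ciarta, nr1d2a and nr1d1, repressors of the circadian clock, had relative changes of 2.05 ± 0.33, 1.48 ± 0.32 and 2.38 ± 0.59, of which nr1d1 did not pass after TMM scaling. aanat1, an enzyme of melatonin synthesis, had a relative change of 1.91 ± 0.42. The hour at which each cord was taken is not in the labels, so time of day and injury cannot be told apart for these genes.

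Of 38 chaperone and stress genes 3 were called higher and 1 lower, with 5 higher and 0 lower without uninjured mutant 2 and 0 in either direction without any other mutant library. trib3, a pseudokinase of the endoplasmic reticulum stress response, had 53.0 and 57.9 CPM in injured mutants and 5.72 and 15.4 CPM in uninjured mutants, a relative change of 2.06 ± 0.41 in both scalings. hspa8, a constitutive Hsp70 chaperone, and pdia3, a disulfide isomerase, did not pass after TMM scaling. The lower call was hsp90aa1.1. Of all genes 2.94% were called higher and 0.251% lower. Of 35 glycolysis genes hk2, gck and slc16a3 were called higher, none after TMM scaling, with 0 to 2 calls when a mutant library was left out (0 without either injured mutant); hk2, a hexokinase, had 24.9 and 27.6 CPM in injured mutants and 6.76 and 3.79 CPM in uninjured mutants. After TMM scaling 1 glycolysis gene was called lower and 0 higher. DESeq2 called 2 glycolysis genes higher and 2 lower, and edgeR called 0. The cytosolic ribosome gave 0 calls of 80 in limma, edgeR and DESeq2. At an unadjusted limma p under 0.05, 12 were higher, against 3051 of all 19114 genes. The gene nearest to a call was rps6, a small subunit protein, at 0.38 ± 0.28, and the ribosome list had a median of 0.06. That median was 0.41 without uninjured mutant 1, -0.32 without uninjured mutant 2 and -0.03 after TMM scaling.

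Of 66 cell cycle genes 3 were called higher and 0 lower, and 0 after TMM scaling or with a mutant library left out. Over all genes 2.94% were called higher. In this list edgeR called 0, and DESeq2 called 0 higher and 1 lower. The median relative change was 0.61, and 56 of 66 had injured libraries above uninjured ones, against 45.3% of all genes. mcm2, a subunit of the replicative helicase, had 37.0 and 27.1 CPM in injured mutants and 11.6 and 10.9 CPM in uninjured mutants, a relative change of 1.05 ± 0.33 (limma adjusted p = 0.0378). mki67, a nuclear protein of dividing cells, had 14.5 and 19.3 CPM in injured mutants against 6.55 and 11 CPM in uninjured mutants, a relative change of 0.53 ± 0.38 that did not pass. The largest value was that of ccnb1, a mitotic cyclin also stored in eggs, with 298 and 94.9 CPM in injured mutants and 17.4 and 4.95 CPM in uninjured mutants. The injured libraries differed from each other for ccnb1 as they did for egg transcripts, whose summed level was 3592 and 1059 CPM in injured mutants and 278 and 110 CPM in uninjured mutants; the part of egg transcripts in the cell cycle list was not tested.

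Secreted peptides were among the largest rises. vipb, a vasoactive intestinal peptide gene, had 27.3 and 19.6 CPM in injured mutants against 0.299 and 0.718 CPM in uninjured mutants, a relative change of 3.65 ± 0.42 (limma adjusted p = 0.000721). pyya, a peptide YY gene, had 388 and 339 CPM in injured mutants and 19.2 and 36.2 CPM in uninjured mutants. calca, the calcitonin gene-related peptide of sensory and motor neurons, had 1199 and 1104 CPM in injured mutants and 165 and 246 CPM in uninjured mutants, a relative change of 2.14 ± 0.28. calca was the only member of 24 Schwann cell and peripheral neuron genes called with deposited CPM, where 2.94% of all genes were called higher. After TMM scaling 1 member was called higher and 1 lower, and DESeq2 called 1 higher and 2 lower. The median of that list was -0.15, or 0.10 without uninjured mutant 2.

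Of the 48 genes called lower (0.251% of all genes tested), 14 were on the skeletal muscle list and 10 on the erythrocyte list. Of 60 skeletal muscle genes 14 were called lower and 0 higher, 10 after TMM scaling, with a median relative change of -1.11. With a mutant library left out 0 to 2 were called (0 without uninjured mutant 1). actc1b, an actin of striated muscle, had 416 and 401 CPM in injured mutants against 2517 and 2750 CPM in uninjured mutants, a relative change of -3.05 ± 0.40 (limma adjusted p = 0.00549). pvalb3, a parvalbumin of fast muscle, had 151 and 118 CPM in injured mutants and 1460 and 1386 CPM in uninjured mutants. The summed muscle level was 4480 and 4758 CPM in injured mutants and 17226 and 17930 CPM in uninjured mutants. Muscle is not part of the spinal cord, and how much of it came with each cord at dissection is not recorded.

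Of 20 erythrocyte genes 10 were called lower and 0 higher, 11 after TMM scaling, with a median of -2.08 and 2 to 7 calls when a mutant library was left out (2 without uninjured mutant 1). hbba1, an adult beta globin, had 553 and 507 CPM in injured mutants against 5402 and 3610 CPM in uninjured mutants, a relative change of -3.42 ± 0.50 (limma adjusted p = 0.00869). slc4a1a, the anion exchanger of the red cell membrane, had 10.7 and 13.4 CPM in injured mutants and 110 and 87.4 CPM in uninjured mutants, and alas2, which starts haem synthesis in red cells, had 7.12 and 7.05 CPM in injured and 63.7 and 43.7 CPM in uninjured mutants. Globin, membrane, haem and transcription factor (klf1) genes of the lineage were all in this direction. The summed level was 1224 and 1203 CPM in injured mutants and 8446 and 6242 CPM in uninjured mutants. In wild type it was 1241 and 1488 CPM in injured cord and 5847 and 1844 CPM in uninjured cord. There 1 member was called lower, the median relative change was -0.81, and 0 of the 20 passed in the limma interaction. Among them slc4a1a and hbaa2 passed in the DESeq2 interaction (adjusted p = 0.0126 and 0.0245).

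The 12 largest falls outside these lists had related members. tnni2a.3, a fast muscle troponin, had 60.0 and 62.0 CPM in injured mutants against 387 and 402 CPM in uninjured mutants, a relative change of -3.04 ± 0.52 (limma adjusted p = 0.0199). hsp90aa1.1, a chaperone of myosin folding in zebrafish muscle, had 3.01 and 5.15 CPM in injured mutants and 25.4 and 29.5 CPM in uninjured mutants. smyd1a, a methyltransferase of muscle fibres, had 14.2 and 12.9 CPM in injured mutants and 54.4 and 61.2 CPM in uninjured mutants. Beside these muscle genes stood f13a1a.1, a coagulation factor XIII subunit, with 0.913 and 0.969 CPM in injured mutants against 13.2 and 11.4 CPM in uninjured mutants, and tubb1, the beta tubulin of platelets in mammals, with 0.411 and 0.132 CPM against 4.16 and 2.87 CPM in uninjured mutants.

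hapln2, a link protein of the matrix at nodes of Ranvier, had 71.2 and 56.9 CPM in injured mutants and 158 and 237 CPM in uninjured mutants, a relative change of -1.95 ± 0.34 (limma adjusted p = 0.0290). cyp19a1b, tspan35, klf11a, znfl2a, nme2b.2 and cox4i1l complete the 12, the last 5 of them at relative changes between -2.47 and -1.88. Runs without a wild-type library, with another filter, with a replicate block or on mutants alone leave each gene's change as it is. As the 12 were chosen with groups apart, another pseudocount or a mutant library left out of the deposited CPM could not turn a sign. All 12 kept a negative change in every alternative run that tested them, but 8 of 12 were called by edgeR, 3 without either injured wild type, and 0 to 2 with a mutant library left out (0 without injured mutant 2 or uninjured mutant 1).

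Myelin and oligodendrocyte genes had 1 of 20 called higher, plp1a, and 0 lower, with a median of 0.06. The call of plp1a, a proteolipid of myelin, was not made after TMM scaling, in edgeR or in DESeq2 (adjusted p = 0.196, 0.227 and 0.100), and DESeq2 called 0 members higher and 3 lower, so that the direction of the calls turned with the tool. Without injured mutant 1 the median was -0.03. mbpa, the myelin basic protein gene and the most abundant of them, had 38332 and 33531 CPM in injured mutants against 123780 and 81797 CPM in uninjured mutants, a relative change of -1.86 ± 0.38 that did not pass in limma (adjusted p = 0.0577) or after TMM scaling (adjusted p = 0.433), while DESeq2 called it lower (adjusted p = 4.47e-06). Its groups were apart, and uninjured mutant 1 was the highest. The list summed to 63818 and 56583 CPM in injured mutants and 150310 and 107742 CPM in uninjured mutants. The 13 protein genes of the mitochondrial genome were all lower in injured cord in each pairing of libraries, against 7.48% of all genes. Their median was -1.38. Of these, limma called 1, mt-atp6, at 2704 and 2623 CPM in injured mutants against 7273 and 5640 CPM in uninjured mutants. It was not called after TMM scaling (adjusted p = 0.102). DESeq2 called all 13 lower, edgeR called 0, and limma called 3 without uninjured mutant 2 and 0 without any other mutant library; 13 had an unadjusted limma p under 0.05. At that unadjusted p, 277 of all 19114 genes were lower. Of 84 nuclear genes of oxidative phosphorylation, limma called cox4i1l alone, lower, while edgeR called 1 lower and DESeq2 called 4 lower. The median was -0.41, or -0.17 without uninjured mutant 1 and -0.67 without uninjured mutant 2.

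**Figure D3:**
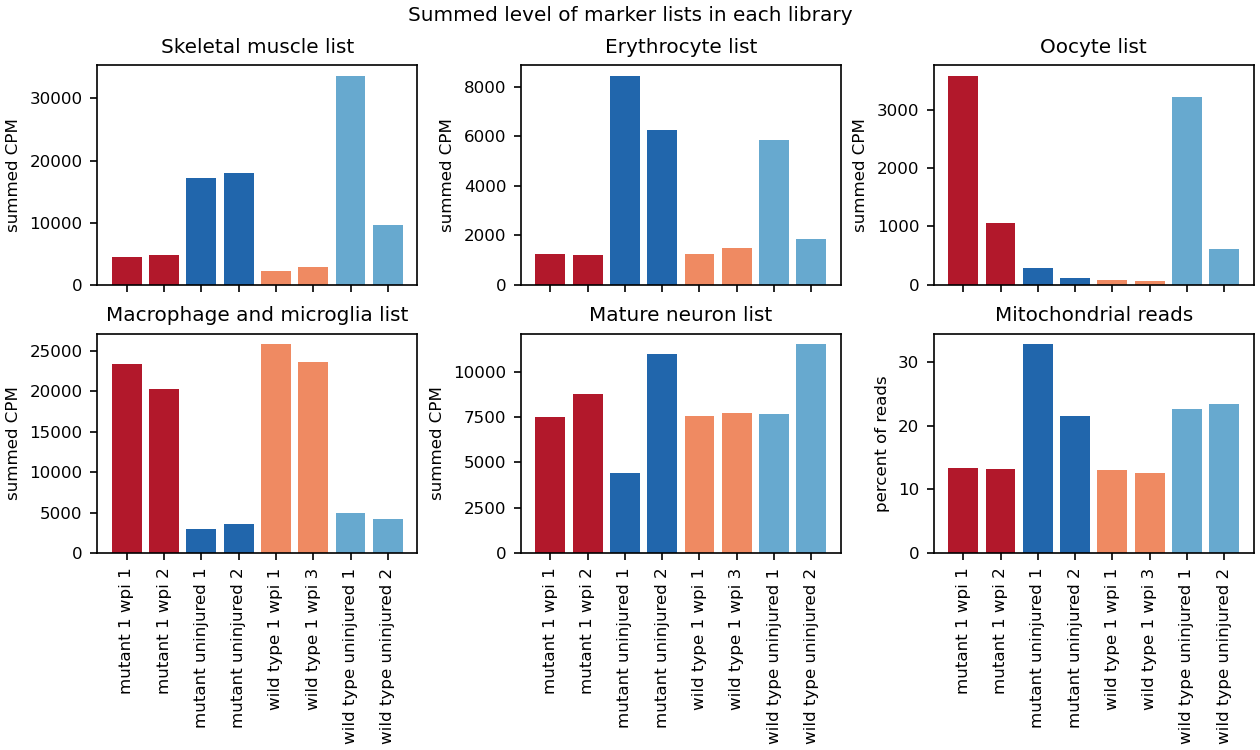
Summed CPM of 5 marker lists and the percent of mitochondrial reads in each of the 8 libraries, 1 bar per library from 0, with injured left of uninjured cord in mutants and then in wild type. Macrophage genes sum to 23337 and 20261 CPM in injured mutants against 2935 and 3566 CPM in uninjured mutants, muscle and erythrocyte genes lie the other way, and oocyte genes are high in injured mutants and in uninjured wild type.

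Transcripts of eggs and liver differed between libraries of the same group. Of 42 oocyte genes 16 were called higher in injured mutants with deposited CPM, and 0 after TMM scaling or without injured mutant 1, without uninjured mutant 1 or without uninjured mutant 2. Their summed level of 3592 and 1059 CPM in injured mutants and 278 and 110 CPM in uninjured mutants lies beside 83.6 and 70.5 CPM in injured and 3224 and 605 CPM in uninjured wild type. zp3a.1, an egg coat protein, had 348 and 98.4 CPM in injured mutants and 14.9 and 0.878 CPM in uninjured mutants. Of the 562 genes called higher, 55 (9.79%) had a correlation over 0.9 with the oocyte sum over the 8 libraries, against 187 (0.978%) of all genes tested. Among the 185 also called after TMM scaling there were 0. Liver genes summed to 151 and 138 CPM in injured mutants and 887 and 280 CPM in uninjured mutants. Of 39 liver genes, 0 were called by limma or edgeR and 6 were called lower by DESeq2. At an unadjusted limma p under 0.05, 7 were lower, against 277 of all 19114 genes. The nearest was apoa1b, an apolipoprotein, at -4.14 ± 1.24. Of 19 epidermis genes 0 were called by limma, edgeR or DESeq2. At an unadjusted limma p under 0.05, 5 were higher, against 3051 of all 19114 genes. The nearest to a call was epcam, an epithelial adhesion protein, at 2.88 ± 0.82 (limma adjusted p = 0.0543).

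The wild-type comparison shares no library with that of the mutants, though both take their spread from the same fit. In wild type 737 genes (3.86%) were called, 555 (2.9%) higher and 182 (0.952%) lower. Of the 185 genes called higher in mutants under both scalings, all 185 had a positive relative change in wild type. There 166 were called with deposited CPM, and a call after TMM scaling was not asked for. Of the 37 called lower, 37 had a negative relative change in wild type and 19 were called there, again with deposited CPM only. Over the 18487 genes the relative changes of mutants and wild type correlated at r = 0.363 and rho = 0.527, as a description across genes that share libraries and depth. For the 9590 genes with at least 10 CPM in a mutant group, outside the oocyte and liver lists, they correlated at r = 0.415 and rho = 0.658.

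**Figure D4:**
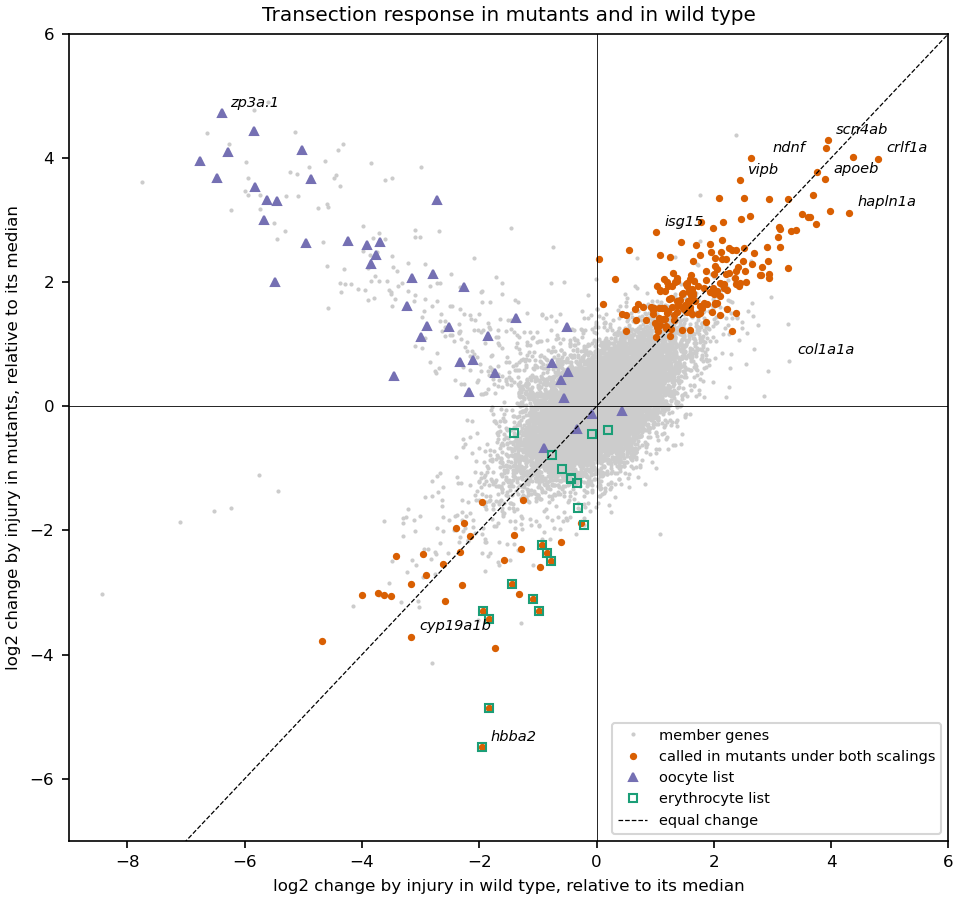
Relative log2 change of injured minus uninjured cord in mutants (vertical axis) against that in wild type (horizontal axis), 1 point per gene, with a dashed line of equal change and marks for genes called in mutants under both scalings, oocyte genes and erythrocyte genes. The 185 genes called higher in mutants lie at positive values in wild type, and most oocyte genes lie at positive values in mutants and negative ones in wild type. Called erythrocyte genes lie below the dashed line, but 0 of the 20 erythrocyte genes passed in the limma interaction.

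Whether a gene responds differently in mutants was tested by the interaction, the injury change of mutants less that of wild type. In limma 108 genes (0.565%) passed, 107 (0.56%) higher and 1 (0.00523%) lower, but 0 passed after TMM scaling and 0 in edgeR on the recovered reads, with 757 and 785 genes at an unadjusted p under 0.05. DESeq2 called 222 (1.16%), 214 (1.12%) higher and 8 (0.0419%) lower. Of the 108, 100 (92.6%) had a correlation over 0.9 with the oocyte sum, as had 155 of the 222 and 187 (0.978%) of all genes tested. The oocyte list itself holds 24 of the 108 and 32 of the 222. The oocyte sum was high in injured mutants and in uninjured wild type. Genes with a large positive interaction over the same libraries tend to follow it, so these shares are a description with no test. The limma count was 0 without uninjured mutant 2 and 350 without uninjured wild type 2. The 1 gene that passed in the other direction was col1a1a, named here after its values were seen. It had 43.0 and 61.1 CPM in injured and 19.7 and 27.5 CPM in uninjured mutants, against 73.6 and 94.4 CPM in injured and 6.51 and 5.76 CPM in uninjured wild type. Its interaction of -2.46 had an adjusted p of 0.0374 in limma, 0.0526 after TMM scaling, 0.0965 in edgeR and 1.38e-06 in DESeq2.

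The 16 largest rises and 12 largest falls had limma adjusted p-values of 0.828 or more in the interaction. At an unadjusted limma p under 0.05, 2 were higher and 2 lower in mutants, against 526 and 93 of all 19114 genes. isg15 had a relative change of 2.80 ± 0.34 in mutants and 1.02 ± 0.34 in wild type, where uninjured cord had 10.5 and 14.8 CPM, and an interaction of 1.87 that did not pass in limma (adjusted p = 0.253) or edgeR (adjusted p = 0.211) and passed in DESeq2 (adjusted p = 0.0124). klf11a had 10 and 8.24 CPM in injured and 22.5 and 34.4 CPM in uninjured mutants, against 11.3 and 11.9 CPM in injured and 9.15 and 14.1 CPM in uninjured wild type (interaction -1.54, limma adjusted p = 0.828, DESeq2 adjusted p = 0.0139). macc1 had an interaction of 1.34 and a DESeq2 adjusted p of 0.0355, with 4.77 and 4.03 CPM in uninjured wild type. slc4a1a, of the erythrocyte list, had an interaction of -2.24 with an adjusted p of 0.0903 in limma, 0.273 in edgeR and 0.0126 in DESeq2. hbaa2, of the same list, had one of -2.95 with an adjusted p of 0.498 in limma, 0.626 in edgeR and 0.0245 in DESeq2. The interactions of hbaa1 and hbba2 passed in none of these tools. With 2 libraries a group, a p that misses the threshold does not show that the genotypes responded alike.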

How the data were processed

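Total RNA from the 8 spinal cord samples was sequenced as TruSeq libraries with 50 bp paired-end reads, per the labels' protocols. The authors deposited CPM per gene for each library, and the submitters' processing notes name Bowtie2, Cuffdiff and Cufflinks with no version. No genome build, annotation or counting program is given in the sources used here, so that near-identical copies such as globin, zona pellucida, parvalbumin and tubulin genes, and overlapping genes, may share reads in an unknown way. All CPM values (100%) were whole multiples of 1 read within 0.01 reads, from which read counts and depths were recovered, 20082743 to 33410514 reads. A column numbered 3 of injured wild type was placed in its group by name.

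Deposited CPM were tested as log2(CPM + 1) by limma 3.58.1 in R 4.3.3, with its trended prior for the variance, 4 group means over 8 libraries (4 residual degrees of freedom) and genes of at least 1 CPM on average in a group. Benjamini-Hochberg adjustment ran over the 19114 genes tested, and genes under an adjusted p of 0.05 were called. edgeR 4.0.16 and DESeq2 1.42.0 on the recovered reads, TMM scaling, CPM without mitochondrial and muscle genes, pseudocounts of 0.5 and 2, no filter, a filter at 5 CPM, a block, the 4 mutant libraries alone and leaving out each library were the alternatives; a lone library of a group is then assumed to vary like the others.

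The members and the gene lists were chosen with earlier results of these data known. Named are the 16 largest rises and 12 largest falls called in both scalings with groups apart and outside the muscle, erythrocyte, oocyte and liver lists, up to 4 called genes a list and direction (or the nearest), 8 fixed genes and up to 8 interaction genes; genes beyond these were named after their values were seen. List results are counts and medians with no test. The mitochondrial share was summed over 32 entries, and its Wilson interval covers counting error only.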

Additional observations from a re-analysis of the deposited data

Results flagged for a closer look

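The injury change differed between mutants and wild type in limma for 15 genes named here, given as the log2 injury change of mutants less that of wild type. For 14 of them it was positive. They were zp3a.1 at 11.20, crp2 at 10.57, zp3f.1 at 10.35, zpax1 at 9.22, zar1l at 9.22, zpax4 at 8.78, zp3e at 8.60, qdprb2 at 8.57, cldng at 8.21, ccnb1 at 7.34, cth1 at 6.38, ccna1 at 6.01, avd at 5.40 and ccnb2 at 5.15, the last named after its values were seen. Many of these are egg coat, zygote arrest or stored cyclin genes. zp3a.1 had 348 and 98.4 CPM in injured and 14.9 and 0.878 CPM in uninjured mutants, and 0.846 and 0.529 CPM in injured and 304 and 43.0 CPM in uninjured wild type, the order that the summed oocyte list also had over the libraries. None of the 14 passed after TMM scaling or in edgeR, while DESeq2 called all 14. The DESeq2 adjusted p ran from 1.09e-10 for cth1 to 0.0337 for ccnb2. The part of egg transcripts in these values was not tested.

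The other gene was col1a1a at -2.46, where the injured and uninjured groups did not overlap in either genotype. The adjusted p was 0.0526 after TMM scaling, 0.0965 in edgeR and 1.38e-06 in DESeq2.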

How the results depend on the processing

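The direction of the named genes was the main one in nearly all alternatives. Of the results, 1638 kept direction and side of the threshold and 708 kept direction but no longer passed. Another 33 passed newly and 9 changed sign, none of them called. The direction could not turn without a wild-type library, with another filter, with the block or with the mutant libraries alone. In those runs the log2 change is that of the main fit by construction. For named genes with the groups apart, the direction was also fixed with another pseudocount and with a mutant library left out of the deposited CPM. The sign changes, as log2 changes before the shift by the median, were rps6 at -0.0351 with TMM scaling without uninjured mutant 2; gfap at -0.0456 with TMM scaling, -0.125 in edgeR, -0.136 in DESeq2, and -0.0687 and -0.533 with TMM scaling without injured mutant 1 or uninjured mutant 2; mstnb at 0.0923 and 0.466 without injured mutant 1 or uninjured mutant 2; and neurod1 at 0.152 without uninjured mutant 2. With any library left out mstnb ran from -0.821 to 0.466 and neurod1 from -0.640 to 0.152, both lowest without uninjured mutant 1.

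The 610 genes called in mutants became 247 with TMM scaling, 271 without mitochondrial and muscle genes, 382 without a filter, 170 in edgeR and 1234 with the 4 mutant libraries alone. With a library left out the count ran from 56 to 1751. With TMM scaling as well, an alternative chosen after seeing the data, it was 4 and 14 without injured mutant 1 or 2, and 22 and 32 without uninjured mutant 1 or 2. DESeq2 called 855, pseudocounts 0.5 and 2 gave 598 and 614, and the 5 CPM filter 697. The 108 interaction genes became 0 with TMM scaling and in edgeR, 67 without mitochondrial and muscle genes, 63 without a filter and 222 in DESeq2. With a library left out they ran from 0 to 350, and with TMM scaling as well from 0 to 30 (30 without uninjured mutant 1). The causes were not tested.

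With the replicate number of the mutant libraries as a block, 576 and 109 genes were called. Same-numbered mutant libraries deviated together with a correlation of 0.199 over genes, but with 2 pairs and no label that ties them the numbers were not taken to pair the samples.

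With 2 libraries a group the spread of single genes is poorly known, and scarcely read genes could not show a small change.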

Other observations

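Neuropeptide genes and genes of motile cilia were gathered into lists after the values of vipb, pyya, calca and foxj1a had been seen, so that their counts are a description with no test. Of 37 neuropeptide genes, 12 were called higher in injured mutants and 0 lower, 11 also after TMM scaling, with a median relative change of 0.68. Of all genes 2.94% were called higher, and 0.968% after TMM scaling. In 24 members both injured libraries lay above both uninjured ones, and in 2, sst1.2 and adcyap1a, below. For all genes these shares were 45.3% and 7.48%. Beside vipb, pyya and calca the called members were tac1, nts, nppal, nppb, pnocb, vgf, adcyap1b, pyyb and cart3. The summed level was 4641 and 4548 CPM in injured mutants and 1068 and 1972 CPM in uninjured mutants.

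Of 76 genes of motile cilia, the beating cell projections of ependymal cells, 19 were called higher and 0 lower, 7 also after TMM scaling, with a median of 0.80. Of all genes 2.94% were called higher, and 0.968% after TMM scaling. In 63 of the 76 cilia genes both injured libraries lay above both uninjured ones, against 45.3% of all genes. daw1, a factor of dynein arm transport, had 52.8 and 58.7 CPM in injured mutants against 12.5 and 8.06 CPM in uninjured mutants, a relative change of 1.99 ± 0.33 (limma adjusted p = 0.00374). zmynd10, a dynein arm assembly factor, had 9.18 and 11.7 CPM in injured mutants and 1.29 and 1.12 CPM in uninjured mutants. In wild type the median of the list was 0.77 and 16 were called higher, and 0 were called in the limma interaction.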
